A study of Mus musculus with 4 samples.

Results

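The 7 genes described here encode the transcriptional effectors of the Hippo pathway: the coactivators Yap1 and Wwtr1 (the gene of TAZ), the DNA-binding factors Tead1, Tead2, Tead3 and Tead4, and the cofactor Vgll4. They were taken by name from the 25289 gene columns of each deposited count table, and all 7 had a column and passed the filter on low counts. Single-cell RNA sequencing (inDrop, which captures cells in droplets) was done on mouse small intestine in 4 libraries. The 2 Lats-deleted libraries came from adult C57BL/6J mice of the genotype Lrig1-CreERT2 Lats1fl/fl Lats2fl/fl, in which tamoxifen switches on a Cre recombinase made in cells that express Lrig1, a gene of crypt stem and progenitor cells, and the floxed alleles of both kinase genes are cut. The 2 control libraries came from adult C57BL/6J mice of the genotype Lats1fl/fl Lats2fl/fl, which carry the same floxed alleles without Cre. Both groups received 2 mg tamoxifen by intraperitoneal injection and were examined at day 7. Live EpCAM+ cells without CD45 and TER119 were sorted, 5000 for each condition. The labels do not say whether the libraries of a group came from separate mice, so all p-values rest on the spread from library to library, which may be technical.

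Hippo signalling runs through a kinase cascade in which MST1 and MST2 activate LATS1 and LATS2, which phosphorylate YAP and TAZ. Phosphorylated YAP and TAZ are held in the cytoplasm or degraded, and the unphosphorylated proteins enter the nucleus and bind TEAD factors on DNA, since neither binds DNA itself. VGLL4 competes with YAP and TAZ for TEAD. In the mouse intestine YAP is known for its part in crypt regeneration after injury. The regulation by LATS acts on the proteins, and the values below are of RNA.

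Cells were barcodes holding 1000 counts and 300 genes or more, with no more than 30% of counts from mitochondrially encoded genes. This left 726 and 1289 Lats-deleted cells and 774 and 515 control cells, 3304 in all. Kept cells held a median of 3715.5 and 3848 counts in Lats-deleted libraries and of 1708 and 1995 counts in control libraries. Lats1 had 6.93 and 9.26 CPM (counts scaled to a common library total) in Lats-deleted libraries and 23.4 and 35.2 CPM in control libraries, while Lats2 had 27.2 and 20.1 CPM in Lats-deleted libraries and 9.20 and 10.5 CPM in control libraries. In this paragraph single genes are in TMM-scaled CPM, defined below, and summed markers are in plain CPM of all kept counts. Which exons the deletion removes is not given in the sources used here, so the Lats2 counts do not check the label. Summed markers of stromal cells, which an EpCAM+ gate should leave out, came to 1252 and 136 CPM in Lats-deleted libraries, against 35.5 and 25.2 CPM in control libraries. Summed stomach genes came to 10.4 and 9285 CPM in Lats-deleted libraries, against 13.7 and 13.8 CPM in control libraries, so Lats-deleted library 2 stands apart. Of the 8 stromal markers all had counts in both Lats-deleted libraries, and of the 7 stomach genes measured all had counts in Lats-deleted library 2. Summed markers of enterocytes, all 14 with counts in every library, came to 1941 and 890 CPM in Lats-deleted libraries, against 35096 and 34198 CPM in control libraries. Cells of clusters named enterocyte-like below numbered 40 and 22 in Lats-deleted and 626 and 403 in control libraries. The make-up of the kept cells thus differed. Summed leukocyte genes came to 91.8 and 70.9 CPM in Lats-deleted libraries, against 342 and 203 CPM in control libraries. Xist, the RNA of the inactive X chromosome, had 585 and 478 CPM in Lats-deleted libraries and 10.6 and 7.03 CPM in control libraries, so sex and genotype cannot be told apart. Pairs of libraries shared 4 to 12 barcodes among kept cells, at most 1.65% of a library's cells. The part of cell make-up, leukocyte RNA and sex in the results was not tested beyond the values within clusters and cell classes given below.

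In the GRCm38 annotation of GENCODE, Yap1 lies on chromosome 9 from 7931999 to 8004596 and Wwtr1 on chromosome 3 from 57455649 to 57575910, both on the minus strand. Tead1 lies on chromosome 7 from 112679318 to 112906807 and Tead2 on the same chromosome from 45215753 to 45233644, both on the plus strand. Tead3 lies on chromosome 17 from 28331671 to 28350817, Tead4 on chromosome 6 from 128224288 to 128300823 and Vgll4 on chromosome 6 from 114860628 to 114969994, all on the minus strand. Exons of Tead2 overlap exons of Cd37 on the other strand, and exons of Yap1 overlap those of Gm20416. Strand use in the counting is not given in the sources used here, so reads of these pairs may not be told apart, although Cd37 held 2 and 11 counts in Lats-deleted cells and 2 and 4 in control cells, and Gm20416 at most 2 in any library.

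The regions before the starts of Yap1 and Wwtr1 are shown because Wwtr1 rose and Yap1 did not pass the test in the results below, while each region holds a copy of the 6 letters that TEAD factors recognise. Each sequence runs 5′ to 3′ on the gene's own strand over the 250 bases before the RefSeq start in GRCm38.p6, at chr9:8004597-8004846 for Yap1 and chr3:57575911-57576160 for Wwtr1, and capitals mark the TEAD core.
Yap1: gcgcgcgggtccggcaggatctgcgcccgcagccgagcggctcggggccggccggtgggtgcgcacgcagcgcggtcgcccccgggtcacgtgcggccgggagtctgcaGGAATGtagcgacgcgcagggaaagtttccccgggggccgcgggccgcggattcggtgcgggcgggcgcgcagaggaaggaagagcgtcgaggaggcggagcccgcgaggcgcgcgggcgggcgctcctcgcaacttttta
Wwtr1: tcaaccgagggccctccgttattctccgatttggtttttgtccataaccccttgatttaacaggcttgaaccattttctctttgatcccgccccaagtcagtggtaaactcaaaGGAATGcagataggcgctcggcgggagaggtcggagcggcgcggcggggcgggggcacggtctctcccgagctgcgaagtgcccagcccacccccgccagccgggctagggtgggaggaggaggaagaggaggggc
The core was searched as GGAATG and, for the other strand, as CATTCC, which do not overlap each other. It begins 141 bases before the start of Yap1 and 136 bases before that of Wwtr1. Of all 32851 such windows in the RefSeq table, 12.6% hold the core on either strand. Entries were present for 5 of the 7 genes, with 8 windows, of which 6 hold the core. Windows of a gene can overlap, and those of Wwtr1 share the same copy of the core. At least 1 window holds the core for Yap1, Wwtr1, Tead3 and Vgll4. The letters are not in the window of Tead2, nor in a further window of Tead3. A match is a description of the sequence and not a binding site.

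The first comparison asks how the RNA of these effectors differs in epithelium in which the alleles of their kinases were deleted. Counts were summed over the kept cells of each library and tested with edgeR's quasi-likelihood test across all 12561 genes that passed its filter, with Benjamini-Hochberg adjustment and a threshold of 0.05. CPM are relative to the summed counts of tested genes after TMM scaling, a scaling that assumes that most genes do not differ. Of the 7 genes, Wwtr1, Tead1, Tead2 and Tead4 rose in Lats-deleted libraries, and Yap1, Tead3 and Vgll4 did not pass the threshold. Of all genes tested, 30.8% passed it, 15.3% higher and 15.5% lower in Lats-deleted libraries. In 6 of the 7 genes both Lats-deleted libraries lay above both control libraries, a pattern that 35.6% of all tested genes showed. Fewer cells of a type and less RNA per cell cannot be told apart in such sums.

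**Figure D1:**
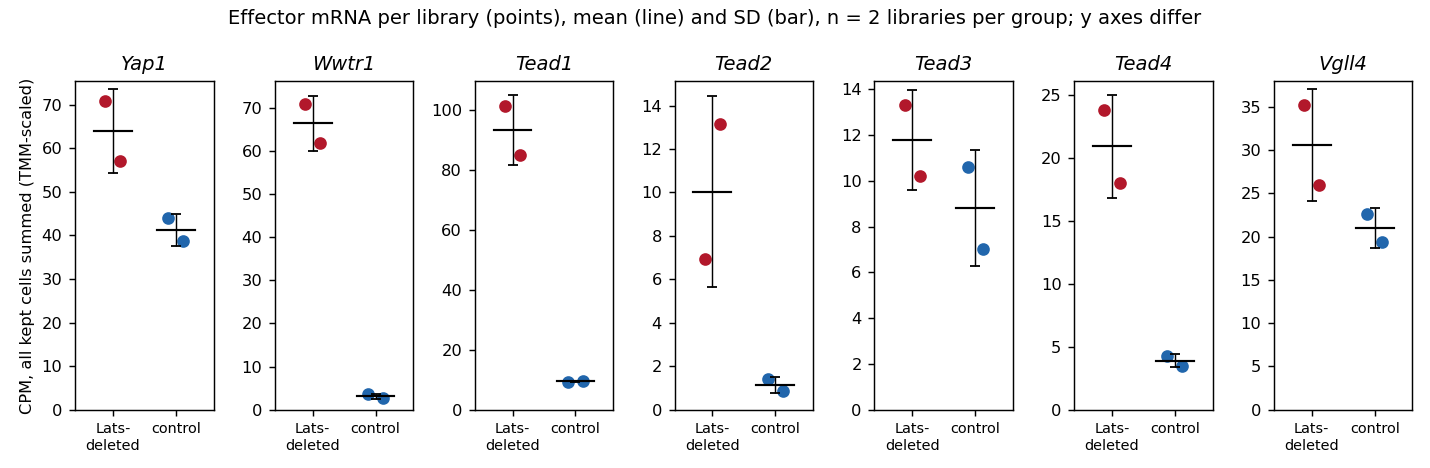
TMM-scaled CPM of each gene in the sum of all kept cells (y axis, each panel with its own scale), with 1 point for each library, Lats-deleted libraries left of control libraries, and bars for the group means. For Wwtr1 and Tead1 both Lats-deleted points sit far above both control points, and for Tead3 the points of the groups overlap.

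Of the coactivators, Wwtr1 was nearly without counts in control cells. It had 276 and 381 counts in Lats-deleted libraries, against 5 and 3 in control libraries, or 70.8 and 61.9 CPM in Lats-deleted libraries and 3.54 and 2.64 CPM in control libraries. The groups lay far apart, and the Lats-deleted libraries were close to each other. The means were 66.3 ± 6.31 CPM in Lats-deleted and 3.09 ± 0.639 CPM in control libraries (SD, n = 2 each). The log2 fold change was 4.39 (SE 0.332, edgeR adjusted p = 0.000304). The ratio of the summed counts, scaled for depth, was 20.8, with a 95% exact interval of 10.5 to 48.5 that covers counting error only. The log2 fold change of Wwtr1 was 4.38 without the stromal-like cluster and 4.37 without clusters led by stomach genes.

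Yap1, the closest relative of TAZ, had counts in cells of both groups. It had 70.8 and 57.2 CPM in Lats-deleted libraries and 43.9 and 38.7 CPM in control libraries, from 276 and 352 counts in Lats-deleted and 62 and 44 counts in control cells. Both Lats-deleted values lay above both control values, by less than for Wwtr1. Means were 64.0 ± 9.64 CPM in Lats-deleted and 41.3 ± 3.69 CPM in control libraries (SD, n = 2 each), and the log2 fold change was 0.63 (SE 0.230, edgeR adjusted p = 0.0812). Yap1 passed the threshold in 5 of 17 alternatives. These included plain library totals in place of TMM (0.89, edgeR adjusted p = 0.0266) and no filter on low counts (0.83, 0.0400). The others were sums without clusters led by stomach genes (0.63, 0.0288), those of clusters in both Lats-deleted libraries (0.68, 0.0170), and leaving out Lats-deleted library 2 (0.76). Except for the last, 4347 of 12561, 4410 of 24403, 4991 of 11756 and 5262 of 11415 genes passed in this order. The main test gave 3869 of 12561.

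Wwtr1 accordingly held a larger part of the coactivator counts in both Lats-deleted libraries. It held 50% (95% exact interval 45.7 to 54.3) and 52.0% (48.3 to 55.6) of the Wwtr1 and Yap1 counts in Lats-deleted libraries, against 7.46% (2.47 to 16.6) and 6.38% (1.34 to 17.5) in control libraries. These shares compare libraries and not the levels of 2 genes, since gene length and capture enter them. The log2 ratio of Wwtr1 to Yap1 was on average higher by 3.81 in Lats-deleted libraries. The two-sided exact permutation p over the 6 splits of 4 libraries was 0.33, the smallest that 2 against 2 libraries can give, so this design cannot reach 0.05.

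**Figure D2:**
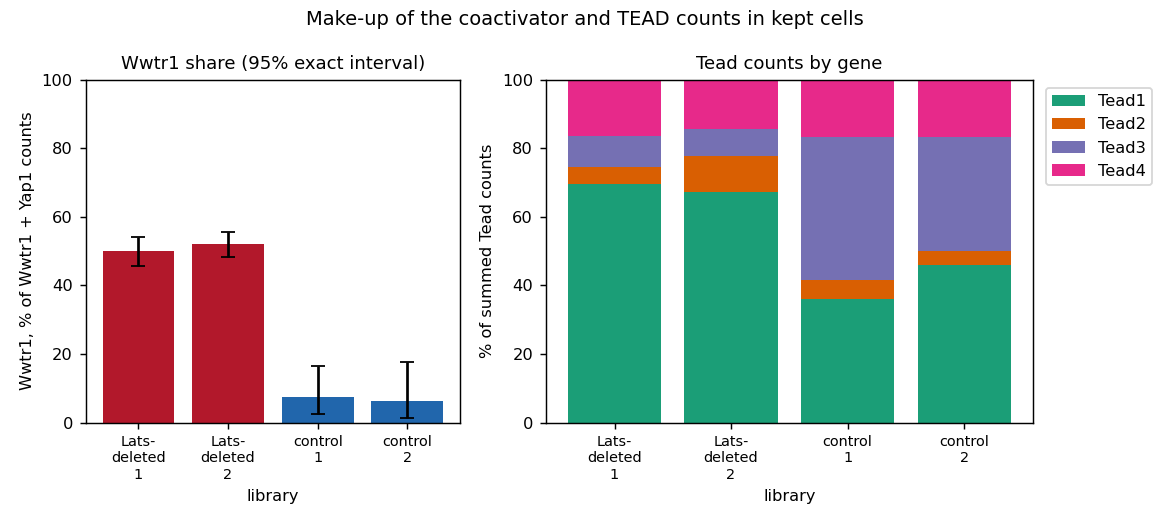
Left, the percent of Wwtr1 in the summed Wwtr1 and Yap1 counts of each library with 95% exact intervals; right, the percent of each Tead gene in the summed Tead counts. Wwtr1 holds 50% and 52.0% in Lats-deleted libraries and 7.46% and 6.38% in control libraries, and the Tead1 part is larger and the Tead3 part smaller in Lats-deleted libraries.

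Among the TEAD genes, which encode the DNA-binding partners of YAP and TAZ, Tead1 rose, with log2 fold change 3.30 (SE 0.263, edgeR adjusted p = 0.000342). It had 102 and 85.1 CPM in Lats-deleted libraries, from 396 and 524 counts, and 9.20 and 9.67 CPM in control libraries, from 13 and 11 counts. The control libraries were nearly equal, and the summed counts, scaled for depth, were 9.72 times higher in Lats-deleted libraries (exact counting interval 6.49 to 15.3). The means were 93.3 ± 11.7 CPM in Lats-deleted and 9.44 ± 0.328 CPM in control libraries (SD, n = 2 each).

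Tead4, a TEAD factor known from the trophectoderm of the mouse embryo, had 93 and 111 counts in Lats-deleted libraries and 6 and 4 in control libraries. In CPM these were 23.9 and 18.0 in Lats-deleted libraries and 4.25 and 3.52 in control libraries. The groups did not overlap, and the log2 fold change was 2.40 (SE 0.401, edgeR adjusted p = 0.00534). Without control library 1 the adjusted p of Tead4 was 0.0558, and without control library 2 it was 0.0520.

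Tead2, known for its expression in the early mouse embryo and in neural tissue, was the sparsest of the 7 genes in control cells, with 27 and 81 counts in Lats-deleted libraries against 2 and 1 in control libraries. It had 6.93 and 13.2 CPM in Lats-deleted libraries and 1.42 and 0.879 CPM in control libraries. The groups did not overlap, but the Lats-deleted libraries lay further apart, relative to their mean, than for the other genes. The log2 fold change was 3.08 (SE 0.679, edgeR adjusted p = 0.0153), and the ratio of summed counts was 9.13 with an exact counting interval of 3.04 to 45.0. The call was lost without Lats-deleted library 2 (adjusted p = 0.0532), without control library 1 (0.110) and without control library 2 (0.115).

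Tead3, the TEAD gene best known from placenta, was the only member whose groups overlapped. It had 13.3 and 10.2 CPM in Lats-deleted libraries and 10.6 and 7.03 CPM in control libraries, from 52 and 63 counts in Lats-deleted and 15 and 8 in control cells. The log2 fold change was 0.39 (SE 0.387, edgeR adjusted p = 0.489), and none of its 16 alternatives passed the threshold.

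Within the TEAD counts, Tead1 took a larger part and Tead3 a smaller part in both Lats-deleted libraries. Tead1 held 69.7% and 67.3% of all Tead counts in Lats-deleted libraries, against 36.1% and 45.8% in control libraries. Tead3 held 9.15% and 8.09% in Lats-deleted libraries, against 41.7% and 33.3% in control libraries. For both genes the groups did not overlap, and the exact permutation p was 0.33 for each, again the smallest possible. Tead4 held 16.4% and 14.2% in Lats-deleted and 16.7% and 16.7% in control libraries. Tead2 held 4.75% and 10.4% in Lats-deleted and 5.56% and 4.17% in control libraries, where the groups overlapped (exact permutation p = 0.667). Control shares rest on few Tead counts, and the exact interval of Tead1 ran from 20.8% to 53.8% in control library 1 and from 25.6% to 67.2% in control library 2.

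Vgll4, which encodes the cofactor that competes with YAP and TAZ for TEAD, had 35.1 and 26.0 CPM in Lats-deleted libraries and 22.7 and 19.3 CPM in control libraries. The groups did not overlap, and the log2 fold change was 0.53 (SE 0.291, edgeR adjusted p = 0.212). The log2 ratio of all Tead counts to Vgll4 counts was 2.05 and 2.28 in Lats-deleted libraries and 0.17 and 0.13 in control libraries, a mean difference of 2.02 (exact permutation p = 0.33, the smallest possible). Vgll4 passed the threshold in 3 of 17 alternatives, each of which left out cells or clusters with stomach genes or clusters found in a single Lats-deleted library. In the sums without clusters led by stomach genes its log2 fold change was 0.71 (edgeR adjusted p = 0.0353). In these 3 alternatives 4546 of 10582, 4991 of 11756 and 5262 of 11415 tested genes passed, against 3869 of 12561 in the main test.

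**Figure D3:**
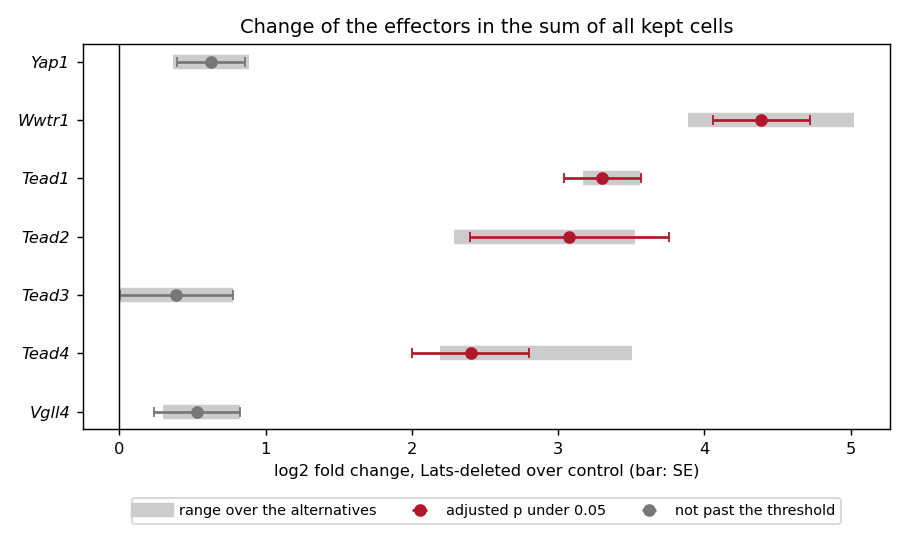
Log2 fold change of each gene, Lats-deleted over control, in the sum of all kept cells (points, with SE as bars), and the range over the alternatives as grey bands. Red points passed the threshold of 0.05. Wwtr1 at 4.39 and Tead1 at 3.30 lie highest, and Yap1, Tead3 and Vgll4 lie under 1.

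The same differences were looked for in the number of cells with a count. Lats-deleted cells held more counts, and whether from deeper sequencing or more RNA was not tested, so every cell was thinned to 1000 counts, which all kept cells reach. After thinning, Wwtr1 had a count in 6.47% and 6.21% of Lats-deleted cells and in 0.129% and 0.194% of control cells. Tead1 had one in 10.6% and 7.99% of Lats-deleted cells and in 0.775% and 0.777% of control cells. The groups were far apart for both genes, as they were before thinning: unthinned, Wwtr1 had a count in 24.1% and 21.6% of Lats-deleted cells and in 0.646% and 0.583% of control cells. Unthinned Tead1 had one in 32.6% and 27.9% of Lats-deleted cells and in 1.55% and 1.94% of control cells.

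Yap1 had a count in 6.06% and 5.43% of thinned Lats-deleted cells and in 3.36% and 1.55% of thinned control cells. Vgll4 had one in 4.27% and 3.03% of Lats-deleted and in 2.20% and 1.17% of control cells, and Tead4 in 2.07% and 2.33% of Lats-deleted and in 0.129% and 0.194% of control cells. These shares differed in the same direction as the CPM. Tead3 stood at 0.826% and 0.776% of Lats-deleted and 0.646% and 0.583% of control cells. Tead2 had a count in 0.964% and 1.71% of Lats-deleted cells and in 0 of 774 and 0 of 515 control cells, which allow shares with a count at this thinned depth of up to 0.388% and 0.583%. Unthinned, 2 and 1 of the control cells had a Tead2 count. For each of the 7 genes the exact permutation p was 0.33, the smallest possible. Free RNA can give counts in cells that do not make a gene: in enterocyte-like cells, at a median of 2423 and 2040.5 counts in Lats-deleted and 1656.5 and 1950 in control libraries, thinned Wwtr1 had a count in 0 of 40 and 0 of 22 Lats-deleted cells, and in 1 of 626 and 0 of 403 control cells. Unthinned, it had one in 0 and 1 of the Lats-deleted and in 4 and 0 of the control enterocyte-like cells. The zeros in thinned Lats-deleted cells allow shares of up to 7.5% and 13.6%, above the thinned shares in all Lats-deleted cells. Thinned enterocyte-like cells are thus too few to measure such a background. Unthinned, the 0 of 40 in Lats-deleted library 1 allows up to 7.5%, below the 24.1% of all its cells. Median depth there was 2423 counts, against 3715.5 in all its cells, and the part of depth was not tested. In Lats-deleted library 2 the unthinned share was 4.55% (exact interval 0.115% to 22.8%), which does not exclude the 21.6% of all its cells.

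Cells were clustered with the 7 genes left out of the clustering, and levels were then read in the 23 sums of a cluster and a library that held at least 30 cells, 11 from Lats-deleted and 12 from control libraries. No cluster held such numbers in both groups, so none of these levels compares the genotypes within 1 cluster: control cells lay in enterocyte-like, stem-like and goblet-like clusters, and Lats-deleted cells mostly in clusters of their own. Among its 10 leading genes the cluster called goblet-like had Zg16, Tff3, Muc2 and Fcgbp of goblet cells and also Defa24, Defa23, Defa-rs7 and Lyz1 of Paneth cells. The named states were built here from marker genes and not taken from the study. The levels below are plain CPM of each sum with 95% exact Poisson intervals for counting error. The 23 sums come from 4 libraries, and the share of all genes whose groups of sums do not overlap was not counted.

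**Figure D4:**
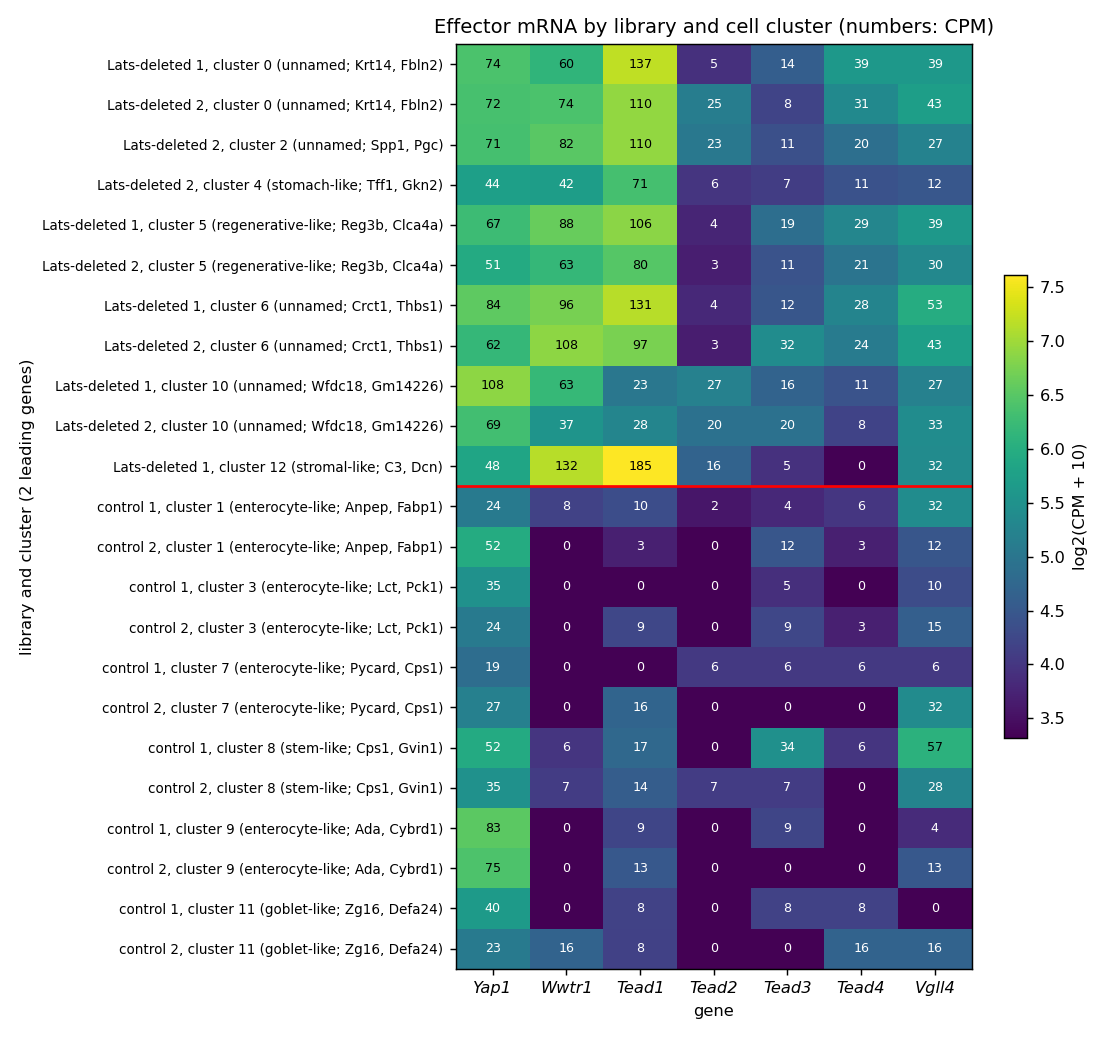
CPM of each gene (columns) in each sum of a cluster and a library with at least 30 cells (rows, Lats-deleted above control). Wwtr1 and Tead1 are higher in all 11 Lats-deleted sums than in any of the 12 control sums, and Tead3 and Vgll4 in none. The sums come from 4 libraries, and how many other genes show such a pattern was not counted.

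Wwtr1 was spread over all clusters with at least 30 cells in a Lats-deleted library, and smaller sums are left out. Of these smaller Lats-deleted sums, the stem-like (4 and 5 cells), goblet-like (2 and 5) and enteroendocrine-like (3 and 13) ones held no Wwtr1 count. Enterocyte-like cells (40 and 22, over several clusters) held 0 and 1 counts. Cycling progenitor-like cells (25 and 16) held 6 and 3, and the 8 stromal-like cells of Lats-deleted library 2 held 4. Counts of 0 in the stem-like cells allow up to 343 and 200 CPM, and whether cells of these types share the rise was not tested. The CPM of Wwtr1 ran from 36.6 to 132 over the 11 Lats-deleted sums (median 74.2), against 0 to 15.7 over the 12 control sums (median 0, with 8 at 0). Every Lats-deleted sum lay above the highest control sum. In order of level, the stromal-like cluster led by C3 and Dcn had 132 CPM in Lats-deleted library 1 (interval 85.6 to 195), and the unnamed cluster led by Crct1 and Thbs1 had 96.0 and 108 CPM. The unnamed cluster led by Spp1, Pgc and Muc6, nearly all from Lats-deleted library 2, had 81.6 CPM there. The regenerative-like cluster led by Reg3b and Clca4a had 88.2 and 62.5 CPM, and the unnamed cluster led by Krt14 and Fbln2 had 59.6 and 74.2 CPM. The lowest were the unnamed cluster led by Wfdc18, with 63.2 and 36.6 CPM, and the stomach-like cluster led by Tff1 and Gkn2, with 42.3 CPM in Lats-deleted library 2. Neighbours in this order had overlapping intervals. The stromal-like cluster held 9.06% of the Wwtr1 counts of Lats-deleted library 1 and 9.78% of its cells.

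Tead1 had 22.6 to 185 CPM over the Lats-deleted sums (median 106) and 0 to 17.2 CPM over the control sums (median 8.76), again with no overlap. The stromal-like cluster was highest with 185 CPM (interval 129 to 257), followed by the Krt14 cluster with 137 and 110 CPM and the Crct1 cluster with 131 and 97.3 CPM. The Wfdc18 cluster was lowest in both Lats-deleted libraries, with 22.6 CPM (10.8 to 41.5) and 28.5 CPM (11.5 to 58.7). In Lats-deleted library 1 its interval lay below those of all other clusters, and in Lats-deleted library 2 it met only that of the stomach-like cluster (58.2 to 85.5).

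Yap1 ordered the clusters differently. It had 43.6 to 108 CPM over the Lats-deleted sums (median 69.2) and 19.0 to 82.7 CPM over the control sums (median 34.9), and 2 of the 11 Lats-deleted sums lay above the highest control sum. In Lats-deleted library 1 it was highest in the Wfdc18 cluster, where Tead1 was lowest, with 108 CPM (79.9 to 144). This interval overlapped those of all other clusters read in Lats-deleted library 1. In Lats-deleted library 2 the Wfdc18 cluster had 69.2 CPM of Yap1 (40.3 to 111), beside 71.8 CPM in the Krt14 cluster and 71.0 CPM in the Spp1 cluster. Among control cells it was highest in the enterocyte-like cluster led by Ada, Cybrd1 and Slc28a2, with 82.7 CPM (49.8 to 129) and 75.4 CPM (27.7 to 164). The other enterocyte-like clusters of control libraries had 19.0 to 51.9 CPM of Yap1, and within a library their intervals overlapped that of the Ada cluster, except for the Anpep and Fabp1 cluster of control library 1 (24.2 CPM, 12.5 to 42.2).

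Tead2 and Tead4 were uneven among Lats-deleted clusters. Tead2 had 27.1 and 20.3 CPM in the Wfdc18 cluster and 22.9 CPM in the Spp1 cluster of Lats-deleted library 2. That cluster held 53.1% of the Tead2 counts of Lats-deleted library 2 and 31.6% of its cells. In the Krt14 cluster Tead2 had 5.18 CPM (1.41 to 13.3) in Lats-deleted library 1 and 25.1 CPM (15.6 to 38.4) in Lats-deleted library 2, so the libraries differed within 1 cluster. Tead2 was at 0 in 9 of the 12 control sums. Tead4 had 38.8 and 31.1 CPM in the Krt14 cluster, 29.1 and 21.3 CPM in the regenerative-like cluster, and no count in the stromal-like cluster, where a count of 0 allows up to 15.9 CPM. Its control sums ran from 0 to 15.7 CPM (median 3.00), and 7 of the 11 Lats-deleted sums lay above them.

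For Tead3 and Vgll4 no Lats-deleted sum exceeded the highest control sum. Tead3 ran from 5.29 to 32.4 CPM (median 12.2) in Lats-deleted and from 0 to 34.4 CPM (median 6.67) in control sums. Vgll4 ran from 12.4 to 52.7 CPM (median 32.6) in Lats-deleted and from 0 to 57.3 CPM (median 13.6) in control sums. Both were highest among control sums in the stem-like cluster of control library 1, Tead3 with 34.4 CPM (12.6 to 74.8) and Vgll4 with 57.3 CPM (27.5 to 105). In control library 2 the same cluster had 7.01 CPM of Tead3 and 28.0 CPM of Vgll4.

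The genotypes were also compared within a joint class of progenitors and within enterocyte-like cells. The progenitor class joined the stem-like and the cycling progenitor-like cluster, with 29 and 21 Lats-deleted cells, mostly of the cycling cluster (25 and 16), and 84 and 60 control cells, all of the stem-like cluster. The class thus sets mainly cycling Lats-deleted cells against stem-like control cells, and cluster and genotype cannot be told apart in it. The Spp1 cluster, with 407 cells of Lats-deleted library 2, had 13 of 14 cycling markers enriched. Stomach genes among its leading genes kept it unnamed and outside the class. At Leiden resolution 2 the class held 33 and 402 Lats-deleted cells, with a Tead1 log2 fold change of 4.23 (edgeR adjusted p = 0.00332). There 768 of 3186 tested genes passed. Of the cells of Lats-deleted library 2, 239 and 139 lay in cycling clusters that held 2 and 0 cells of Lats-deleted library 1. A cluster of 11 and 12 control cells, with 13 of 14 cycling markers enriched, stayed unnamed and outside the class. That fold change thus also mixes genotype with cell state and with Lats-deleted library 2. In the class at resolution 1, Tead1 was higher in Lats-deleted cells, with 28 and 8 counts in Lats-deleted and 3 and 2 in control libraries. These were 228 and 105 CPM in Lats-deleted and 22.2 and 17.6 CPM in control libraries. All 28 and 8 Lats-deleted counts came from the cycling cluster, and the 4 and 5 Lats-deleted cells of the stem-like cluster held none. The log2 fold change of Tead1 was 3.07 (SE 0.614, edgeR adjusted p = 0.000483), in a class where 34.6% of 2970 tested genes passed the threshold, 19% higher. Yap1 had 97.5 and 118 CPM in Lats-deleted and 66.5 and 44.0 CPM in control progenitors, without overlap, and its log2 fold change was 0.90 with an SE of 0.514 (edgeR adjusted p = 0.190). The other 5 genes had too few counts for the test: Wwtr1 had 6 and 3 counts in Lats-deleted and 1 and 1 in control progenitors, and Tead4 had 4 and 4 in Lats-deleted and 1 and 0 in control progenitors. With DESeq2 the adjusted p of Tead1 was 0.0725, and without Lats-deleted library 1 Tead1 did not pass the filter on low counts.

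Enterocyte-like cells were few in Lats-deleted libraries, 40 and 22, against 626 and 403 in control libraries. Only Yap1 could be tested, with 12 and 2 counts in Lats-deleted and 48 and 36 in control cells, or 122 and 32.9 CPM in Lats-deleted and 40.8 and 41.0 CPM in control libraries. The Lats-deleted values lay on either side of the control values, and the log2 fold change was 1.08 (SE 0.524, edgeR adjusted p = 0.625), where 0.611% of 5889 tested genes passed and 7.69% had an unadjusted p under 0.05, as Yap1 did (0.0448). It was -0.44 without Lats-deleted library 1. Wwtr1 had 0 and 1 counts and Tead1 0 and 4 counts in Lats-deleted enterocyte-like cells, against 4 and 0 of Wwtr1 and 7 and 8 of Tead1 in control cells. Tead2, Tead3 and Tead4 had no count in Lats-deleted enterocyte-like cells, a value not distinguishable at this depth from the control means of 0.851, 6.96 and 2.84 CPM.

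Whether the change differed between the classes was tested as a class by genotype term over 3707 genes, progenitor minus enterocyte-like, of which 16.9% passed. The term was 1.1 for Tead1 (SE 1.52, edgeR adjusted p = 0.696) and -0.33 for Yap1 (SE 0.834, adjusted p = 0.840). Neither passed the threshold, also without adjustment, where 28.3% of genes had a p under 0.05.

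The genes whose pattern over the 23 sums was most like that of each member were listed by Pearson's r of log2(CPM + 10), over at least 4162 genes with 500 counts or more. Of the 23 sums, 11 are of Lats-deleted and 12 of control libraries, so a gene that differs between genotypes sets much of r, and the points share libraries and depth. These r values are descriptions. Wwtr1 was closest to Lamc1, a laminin chain (r = 0.965), Xist (0.963) and Ptrf, a caveolar coat protein (0.960). Tead1 was closest to Slc25a4, a mitochondrial nucleotide carrier (0.961), Efemp1, an extracellular matrix protein (0.947), and Cav1, the caveolar protein caveolin (0.946). Tead4 was closest to Pdzk1ip1 (0.922), Glipr1 (0.906) and Foxa2, a transcription factor of endoderm (0.905). Yap1 was closest to Cdc42se1 (0.889), Sh3gl1 (0.843) and Prkci, an atypical protein kinase C (0.840).

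For Tead2, Tead3 and Vgll4 the closest patterns reached lower values than for the other members. Tead2 was closest to Bms1 (0.817), Cks1b, a partner of cyclin-dependent kinases (0.794), and Bcl3 (0.773). Tead3 was closest to Rlim (0.766), Npepps (0.756) and Scmh1 (0.754), and Vgll4 to Pip5k1a (0.835), Appbp2 (0.829) and Atp6v1f (0.828). Between members, Wwtr1 and Tead1 had r = 0.92 over the 23 sums and 0.68 over the 11 Lats-deleted sums. Yap1 and Wwtr1 had r = 0.54 over the 23 sums and -0.02 over the 11 Lats-deleted sums.

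Other genes of the pathway are given from lists by role, in the sum of all kept cells, beside the median log2 fold change of 0.05 and the 15.3% higher and 15.5% lower over all genes tested. The median of the 7 effectors was 2.40. Of the vestigial-like cofactors other than Vgll4, only Vgll3 could be tested, and it rose with 31.3 and 10.2 CPM in Lats-deleted and 0.708 and 3.52 CPM in control libraries (log2 fold change 3.34, adjusted p = 0.0290). Of 11 genes of the kinase core, 5 rose, Lats1 fell, and the median was 0.66. Stk4, the gene of the kinase MST1, had 72.3 and 69.0 CPM in Lats-deleted and 26.9 and 30.8 CPM in control libraries (log2 fold change 1.3), and Map4k4, another kinase that acts on LATS, changed by 1.12.

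Of 12 tested upstream regulators of the kinases, 8 rose and none fell, with a median of 2.20. Among them, Wwc2, a KIBRA family scaffold, had 197 and 221 CPM in Lats-deleted and 1.42 and 3.52 CPM in control libraries (log2 fold change 6.44). Wtip, a LIM protein that binds LATS, changed by 3.90, and its relative Ajuba had 134 and 165 CPM in Lats-deleted and 0 and 3.52 CPM in control libraries. Of 11 genes of YAP and TAZ turnover and retention, 4 rose and none fell, with a median of 0.65. Csnk1e, a casein kinase that marks YAP and TAZ for degradation, changed by 3.01, and Ywhag and Sfn, members of the protein family that holds phosphorylated YAP in the cytoplasm, changed by 2.33 and 1.45.

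Of 19 tested direct targets of YAP and TAZ, 13 rose, Nuak2 fell and the median was 3.13. F3, the gene of tissue factor, had 368 and 396 CPM in Lats-deleted and 5.66 and 2.64 CPM in control libraries (log2 fold change 6.47). Cyr61, a matricellular protein gene, changed by 5.43, and Myof, a membrane repair protein gene, by 5.23. Lats2, Amotl2 and Ptpn14 stand in this list and in a list of regulators. Of 15 tested chromatin and DNA partners, 2 rose and none fell, with a median of 0.08: Fosl1, a subunit of the AP-1 factor, changed by 2.86 and Smarca4, a chromatin remodelling ATPase, by 0.66. With plain library totals in place of TMM, all log2 fold changes move up by a median of 0.25, and 63.8% of called genes are higher in Lats-deleted libraries, against 49.7% with TMM.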

How the data were processed

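The deposited values are counts per gene and barcode in 4 tables, and 24560 of the 25289 gene symbols are found in GENCODE M21. Per the submitters' processing notes, Bowtie, SAMtools 1.3.1 and RSEM 1.3.0 were used with the build mm10, and their roles are not given in the sources used here. No column of per-sample values was left unused. The tables held 4995 and 16791 barcodes in Lats-deleted libraries and 4398 and 3947 in control libraries, and kept cells held 3562565 and 5826856 counts in Lats-deleted and 1603796 and 1228504 counts in control libraries. The members and gene lists were chosen with earlier results of these data known.

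Kept cells were scaled to 10000 counts, log transformed, and clustered with scanpy 1.11.5 and leidenalg 0.10.2 (2000 variable genes without the 7 members, 30 principal components, 15 neighbours, resolution 1, seed 1), which gave 15 clusters. A cluster was named only from marker lists, with at least 3 markers enriched. No doublet caller was run, and leaving out the 5% of cells with most counts was an alternative. Counts were summed per library and tested between genotypes with edgeR 4.0.16 in R 4.3.3 (filterByExpr, TMM, quasi-likelihood, 2 libraries in each group), after tests on simulated data. DESeq2 1.42.0, other scalings, filters, cell sets, a replicate block and leaving out each library were alternatives, of which plain library totals, the sums without clusters led by stomach genes and those of clusters in both Lats-deleted libraries were chosen after seeing the data. Shares have Clopper-Pearson and counts have exact Poisson intervals (95%), from scipy 1.17.1, and the upper limit stated beside a count of 0 is 3 counts. The genes named from each list are the 3 with the smallest p, of which 1 is not reported here, and those named as most like a member are the 3 with the highest r. Promoter windows come from RefSeq. The 2 libraries of a group were not paired by their replicate number.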

Additional observations from a re-analysis of the deposited data

Results flagged for a closer look

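Barcodes with 50 to 300 counts, which lie below the minimum for a cell and enter no comparison above, carried Wwtr1 and Tead1 above the level of the control libraries. Wwtr1 averaged 48.1 CPM in these barcodes of Lats-deleted libraries, from 40.1 and 56.1 CPM, and 5.10 CPM in those of control libraries, from 6.85 and 3.35 CPM. Tead1 averaged 83.9 CPM in Lats-deleted libraries, from 60.2 and 108 CPM, and 8.45 CPM in control libraries, from 6.85 and 10.1 CPM. The values rest on 20 and 132 Wwtr1 counts in Lats-deleted and 2 and 1 in control barcodes, and on 30 and 253 Tead1 counts in Lats-deleted and 2 and 3 in control barcodes. Yap1 had 74.2 and 60.8 CPM in such barcodes of Lats-deleted libraries and 61.6 and 50.3 CPM in those of control libraries. The part of free RNA in the values of kept cells was not tested.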

How the results depend on the processing

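Wwtr1 and Tead1 passed the threshold in all kept cells under each of their 17 alternatives, with log2 fold changes of 3.89 to 5.02 and adjusted p up to 0.0151 for Wwtr1, and of 3.17 to 3.56 and adjusted p up to 0.0190 for Tead1. Of the 7 genes, 4 passed in the main test and 2 to 4 when a library was left out, with 2 without control replicate 1 and 2 without control replicate 2, where 1228 and 1478 genes in all passed, against 3869. Among progenitors, 1 of the 7 genes passed (Tead1) and 0 with DESeq2. There edgeR called 1029 of 2970 tested genes, and DESeq2 called 432 of 17155 genes with a count. In enterocyte-like cells edgeR called 36 of 5889 and DESeq2 9 of 21992. Without Lats-deleted replicate 1, Tead1 did not pass the filter on low counts among progenitors. Its log2 fold change there ran from 2.83 to 3.42 when another library was left out. With the replicate block, 4 of the 7 genes passed in all kept cells, 1 among progenitors and 0 among enterocyte-like cells. Of all genes tested, 4162 of 12561, 1000 of 2970 and 43 of 5889 passed with the block. The correlation of same-numbered deviations was 0.0447. This value cannot tell whether libraries of the same number shared a batch, which the labels do not give. Direction turned for Yap1 in enterocyte-like cells without Lats-deleted replicate 1 (-0.44, range -0.44 to 1.49), and for the class by genotype term of Yap1 with no filter on low counts (0.54) and when a library was left out (-0.94 to 1.63, with 1.63 without Lats-deleted replicate 1 and 0.02 without control replicate 1). That of Tead1 was -0.51 without Lats-deleted replicate 1 (range -0.51 to 8.04). The difference in the share of cells with Tead3 was -0.259 percentage points when cells were thinned to 2000 counts, and that in the Tead4 percent of Tead counts was 0.823 over cells with at least 2000 counts; the cause was not tested. Tead2 and Tead3 did not pass the filter when every cell was thinned to 1000 counts. Control libraries limit the precision, with 8 Wwtr1 and 3 Tead2 counts in all.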
